A study of Mus musculus with 6 samples.

Results

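Collagens are the triple-helical proteins that give the extracellular matrix its strength, and this account follows their genes in mouse C2C12 myoblasts given sodium pyruvate. C2C12 is a line of muscle precursor cells that can fuse into myotubes. Collagen genes were taken as all genes whose only symbol on the array platform was Col, a number, the letter a and a number. This gave 42 genes of the 18193 genes with a probe set of a single symbol, and 82 probe sets. They were sorted by the kind of assembly they form into 11 fibrillar, 9 basement membrane (types IV, VII, XV and XVIII) and 22 other genes. Col6a6 and Col28a1, also on the list of mouse collagens used for sorting, were not analysed here.

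The pyruvate group was 3 samples of C2C12 myoblasts seeded in 100 mm dishes and kept for 72 h in DMEM made without sodium pyruvate, to which 50 mM sodium pyruvate had been added. The untreated group was 3 samples kept for the same time in basal DMEM. Both media held 10% fetal bovine serum, 4 mM glutamine and 1% antibiotics. The labels call both groups undifferentiated and do not state if the basal DMEM held some pyruvate. Each sample was read on 1 Affymetrix mouse array, all cells are of 1 line, and a control for the added sodium or for osmolality was not analysed here.

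A collagen protein is built from chains that wind into a triple helix, and the chains of one type are often products of different genes. Fibrillar collagens form the ropes of connective tissue, type IV forms the sheet of the basement membrane that wraps each muscle fibre, and other types coat fibrils, form beaded filaments or span the cell membrane. In skeletal muscle most interstitial collagen comes from fibroblasts, but myoblasts in culture also make collagens, and fusing myoblasts deposit a basement membrane.

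Signals are MAS5 intensities as the authors scaled them, and each gene is given by its brightest probe set over the 6 arrays. Changes are differences of mean log2(signal + 16), pyruvate minus untreated, so they understate the change of dim genes. Genes were tested by limma if that mean reached the median of all probe sets, a signal of about 30.34, and a gene passed at a Benjamini-Hochberg adjusted p below 0.05 over all 22519 probe sets tested. Signals of different probe sets are not comparable in level, so only changes are set against each other.

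The 250 bases before the gene start are shown for 3 genes that passed, to set the promoters of genes that were higher with pyruvate (Col6a3 and, on its brightest probe set, Col1a2) beside that of the gene that was lower (Col5a3). The sequences are from RefSeq, mouse build GRCm38.p6, each 5′ to 3′ on the strand of its gene. Capitals mark matches, on either strand, to CCAAT (the core of the NF-Y site, described in mouse type I collagen promoters), GGGCGG (the GC box) and CAGCTG (an E-box of the kind bound by myogenic factors).
Col6a3, chr1:90843972-90844221, minus strand: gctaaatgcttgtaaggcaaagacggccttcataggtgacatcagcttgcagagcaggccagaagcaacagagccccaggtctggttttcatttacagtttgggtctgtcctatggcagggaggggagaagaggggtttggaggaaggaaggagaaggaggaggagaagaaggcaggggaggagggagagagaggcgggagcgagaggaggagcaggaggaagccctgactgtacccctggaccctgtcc
Col1a2, chr6:4505368-4505617, plus strand: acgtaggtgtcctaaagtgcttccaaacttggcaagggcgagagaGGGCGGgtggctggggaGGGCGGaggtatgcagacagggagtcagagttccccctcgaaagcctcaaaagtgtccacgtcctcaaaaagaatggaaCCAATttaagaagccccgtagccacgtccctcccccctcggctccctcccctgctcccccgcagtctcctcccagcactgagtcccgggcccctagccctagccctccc
Col5a3, chr9:20815068-20815317, minus strand: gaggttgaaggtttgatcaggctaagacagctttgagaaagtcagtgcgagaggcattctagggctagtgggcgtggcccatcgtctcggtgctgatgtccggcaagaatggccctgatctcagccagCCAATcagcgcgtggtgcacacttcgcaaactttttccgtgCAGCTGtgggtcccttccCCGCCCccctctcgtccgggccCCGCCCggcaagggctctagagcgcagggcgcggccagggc

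The Col6a3 window held none of these letters, the Col1a2 window held 1 CCAAT and 2 GGGCGG matches, and the Col5a3 window held 1 CCAAT, 2 GGGCGG and 1 CAGCTG match. None of the matches overlapped another. Among all 32851 promoter windows of the same length, 33.8% held CCAAT, 32.7% GGGCGG and 13.0% CAGCTG. RefSeq windows were at hand for 16 of the 19 collagen genes tested, 18 windows in all, of which 9 held CCAAT, 13 GGGCGG and 2 CAGCTG (Col5a3 and Col16a1). These are matches of letters and say nothing on whether a factor binds there.

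Of the 42 collagen genes, 19 were bright enough to be tested, 7 fibrillar, 5 of basement membranes and 7 of other types. With pyruvate 13 of them did not pass, with a few higher by up to 0.69 on the log2 scale and 1, Col5a3, lower, at -0.81. Col1a2, Col5a2, Col18a1, Col6a3 and Col12a1 were higher, 5 genes against a background of 20.7% of all 10685 genes tested, and Col5a3 was lower, against a background of 14.5%. The 6 called of 19 are close to the background of 35.1% called in either direction, so the share of collagen genes that moved does not set them apart. The median change of the 19 was 0.05, beside 0.03 over all genes tested. Pyruvate arrays were all above untreated ones in 6 of the 19 (28.6% of all genes) and all below in 3 (20.0%), 9 without overlap in all (48.6%). By kind, 2 of 7 fibrillar genes were higher and 1 lower (median change 0.05), 1 of 5 basement membrane genes was higher (median 0.03) and 2 of 7 others were higher (median 0.10). The 2 higher fibrillar genes, Col1a2 and Col5a2, were so on their brightest probe sets only. A dimmer Col5a2 probe set was lower (-0.44), and the other Col1a2 probe sets did not pass.

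**Figure D1:**
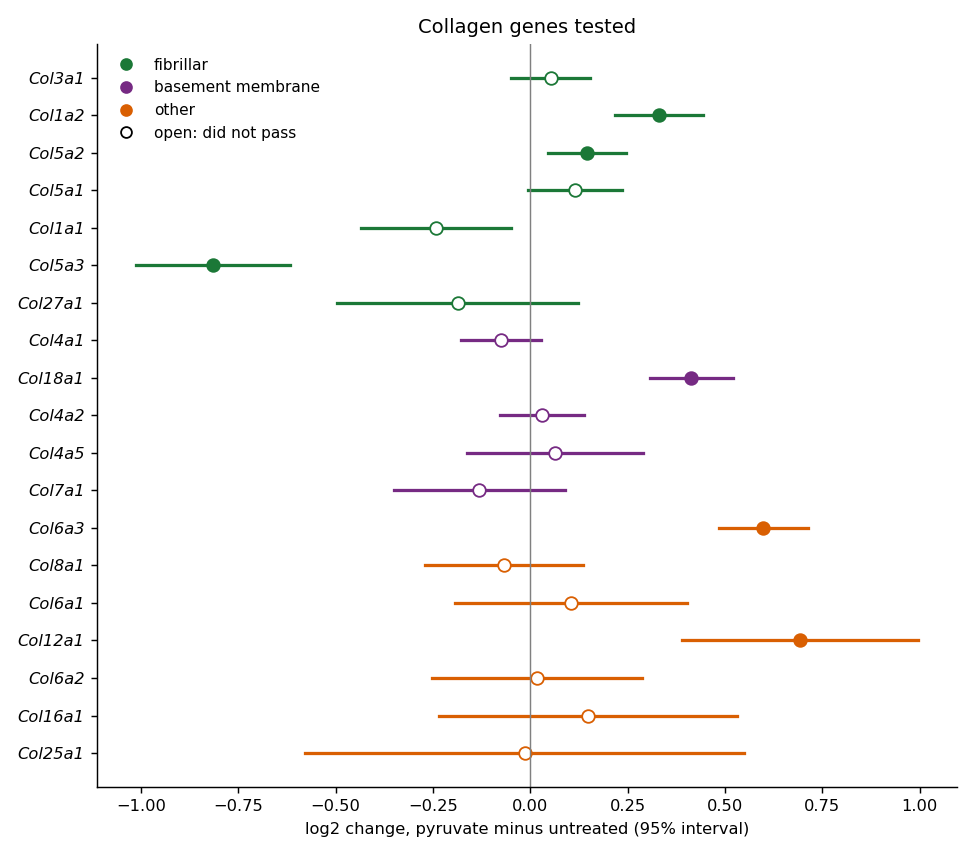
Log2 change (pyruvate minus untreated, x axis) of the 19 collagen genes tested, by kind of collagen, with 95% intervals from limma; filled points passed the threshold. Col12a1 (0.69) and Col6a3 (0.60) lie farthest to the right and Col5a3 (-0.81) alone lies far to the left.

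Median signals of the arrays lay between 30.3 and 33.0. Over all probe sets, which are no replicates, the correlation of 2 arrays was 0.985 to 0.991 inside a group and 0.979 to 0.983 across them. Of the myoblast markers, Myod1, Myf5, Cdh15 and Des were above the filter (Myod1 higher by 0.26, Myf5 at -0.65, Cdh15 at -0.39, Des at -0.08, not past the threshold) and Pax7 was below it. All pyruvate arrays of Des were below its untreated ones. Des passed as lower after quantile normalization (-0.13, limma adjusted p = 0.036) and cyclic loess (-0.18, limma adjusted p = 0.0099), but not after median centring (-0.05, limma adjusted p = 0.54). Markers of myotubes moved with the treatment. Of 12, 11 were lower with pyruvate and Ckm did not pass, their median change was -2.36, and their summed signal was 1556 to 1919 in pyruvate arrays and 8971 to 9376 in untreated arrays. A smaller share of differentiating cells and less of these RNAs per cell cannot be told apart in bulk RNA, and their part in the collagen changes was not tested. Of fibroblast markers, Thy1, Lum, Dpt and Pi16 lay below the filter, and Pdgfrb was higher by 0.44. Pdgfra (0.46, limma adjusted p = 0.055) and Dcn (-0.19, limma adjusted p = 0.054) did not pass. All pyruvate arrays of Dcn were below its untreated ones, 221 to 248.2 against 266.6 to 276. Pdgfra passed after quantile, median and cyclic loess normalization (adjusted p = 0.033 to 0.036), and Dcn did not (adjusted p = 0.077 to 0.17). The summed signal of the 7 was 521.8 to 552.3 with pyruvate and 475.4 to 501 untreated. Endothelial markers summed to 48.5 to 58.1 with pyruvate and 69 to 91.4 untreated. Kdr was lower, at -0.43 (adjusted p = 0.043, but 0.058 to 0.063 after quantile, median or cyclic loess normalization). Pecam1, Cdh5, Tek, Tie1 and Vwf lay below the filter. Pyruvate means were lower for Cdh5 (10.1 against 16.1), Tek (13.0 against 17.3), Vwf (1.8 against 3.4) and Tie1 (0.77 against 0.97). That of Pecam1 was higher (3.3 against 2.2). No marker of chondrocytes, macrophages or adipocytes passed, 3 of their 15 measured were bright enough for the test, and the summed signals of the groups overlapped for macrophages and adipocytes. For chondrocytes they were 346.2 to 394.7 with pyruvate and 318.1 to 336.5 untreated, most of it Sox9. Whether any of these bears on the collagen values was not tested.

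Type I collagen is the main fibril protein of connective tissue, a trimer of Col1a1 and Col1a2 chains. Col1a2 had signals of 3865.8, 3906.9 and 3777.9 with pyruvate, against 3116.7, 3184.4 and 2885.8 untreated. All pyruvate arrays were above all untreated ones, and the gene was higher by 0.33 ± 0.05 (SE; limma adjusted p = 0.00057). Its other 2 probe sets did not follow, at -0.07 (adjusted p = 0.32) and -0.23 (adjusted p = 0.27), so the rise rests on the brightest. It was smaller, though still past the threshold, after quantile normalization (0.13, adjusted p = 0.033) and cyclic loess (0.18, adjusted p = 0.011). Among the 458 genes tested with a mean log2 value of 11 or more, where Col1a2 and Col3a1 lie, the median change was 0.22 and 85.6% of changes were above 0, beside a median of 0.03 over all genes. The part of this in the 2 collagen values was not tested. The Col1a1 chain gave 133.4, 161.7 and 137.8 with pyruvate and 167.9, 172.9 and 178.5 untreated. The groups did not overlap, pyruvate being lower, but the change of -0.24 ± 0.09 missed the threshold (limma adjusted p = 0.055, 95% interval -0.44 to -0.05). It passed with the stricter signal filter (adjusted p = 0.039) and without the second pyruvate array (-0.32, adjusted p = 0.019). A second Col1a1 probe set was at 0.03 (95% interval -0.28 to 0.33).

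Col3a1 encodes the single chain of type III collagen, the fibril protein of pliable tissue and of healing wounds. Its brightest probe set gave 3569.2, 3710.5 and 3607.3 with pyruvate and 3487.2, 3590.2 and 3421.9 untreated. The groups overlapped, and the change of 0.05 did not pass as the authors scaled the arrays (limma adjusted p = 0.43) and turned to -0.18 after quantile normalization and -0.10 after cyclic loess, both past the threshold. A dimmer Col3a1 probe set, designed from the same sequence record, gave 316.9, 330.4 and 324.4 with pyruvate against 570.8, 642.9 and 549.1 untreated. On that one every pyruvate array was far below every untreated array, a change of -0.83 ± 0.07 (limma adjusted p = 5.9e-06). The 2 readings of Col3a1 therefore differ in call, and no direction is given for the gene.

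Type V collagen starts and limits the growth of type I fibrils, with Col5a1 and Col5a2 in its common form and Col5a3, a chain of narrower distribution, in a rarer one. Col5a3 had 112.7, 109.0 and 104.0 with pyruvate, against 185.1, 225.9 and 199.7 untreated. No array of one group came near the other, and the mean signal was 108.6 ± 4.37 with pyruvate and 203.6 ± 20.7 untreated (SD, n = 3 arrays each), a change of -0.81 ± 0.09 (limma adjusted p = 5.7e-05). The change stayed past the threshold under each of the 17 alternatives that tested it, at -0.45 to -0.90, the smallest being the mean with a second probe set that reads near 0. Col5a2 gave 2004.6, 2135.2 and 2076.1 with pyruvate and 1874.1, 1869.6 and 1866.4 untreated. That small rise of 0.15 ± 0.05 passed narrowly (limma adjusted p = 0.030) and was lost without pyruvate replicate 2 or 3, without any 1 of the 3 untreated arrays, and under quantile normalization (0.08, adjusted p = 0.13) or cyclic loess (0.04, adjusted p = 0.46). The call was also lost with no signal filter (limma adjusted p = 0.060) and without the variance trend (limma adjusted p = 0.11). With the mean over probe sets the change reversed, to -0.15. The dimmer Col5a2 probe set, again from the same record, was lower by 0.44 (adjusted p = 0.00041), the opposite call. Col5a1 was at 0.12 (adjusted p = 0.14, 95% interval -0.01 to 0.24), though its pyruvate arrays were all above its untreated ones, 695.7 to 775.8 against 660.4 to 695.6. Its other 2 probe sets, at -0.08 and 0.04, did not pass either.

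Col27a1, a fibrillar collagen known from cartilage, read 47.8, 52.2 and 38.7 with pyruvate and 60.9, 58.7 and 45.1 untreated. Its groups overlapped and it did not pass (-0.19, 95% interval -0.50 to 0.12). The cartilage chains Col2a1, Col11a1 and Col11a2, and Col24a1, known from bone, lay below the filter.

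**Figure D2:**
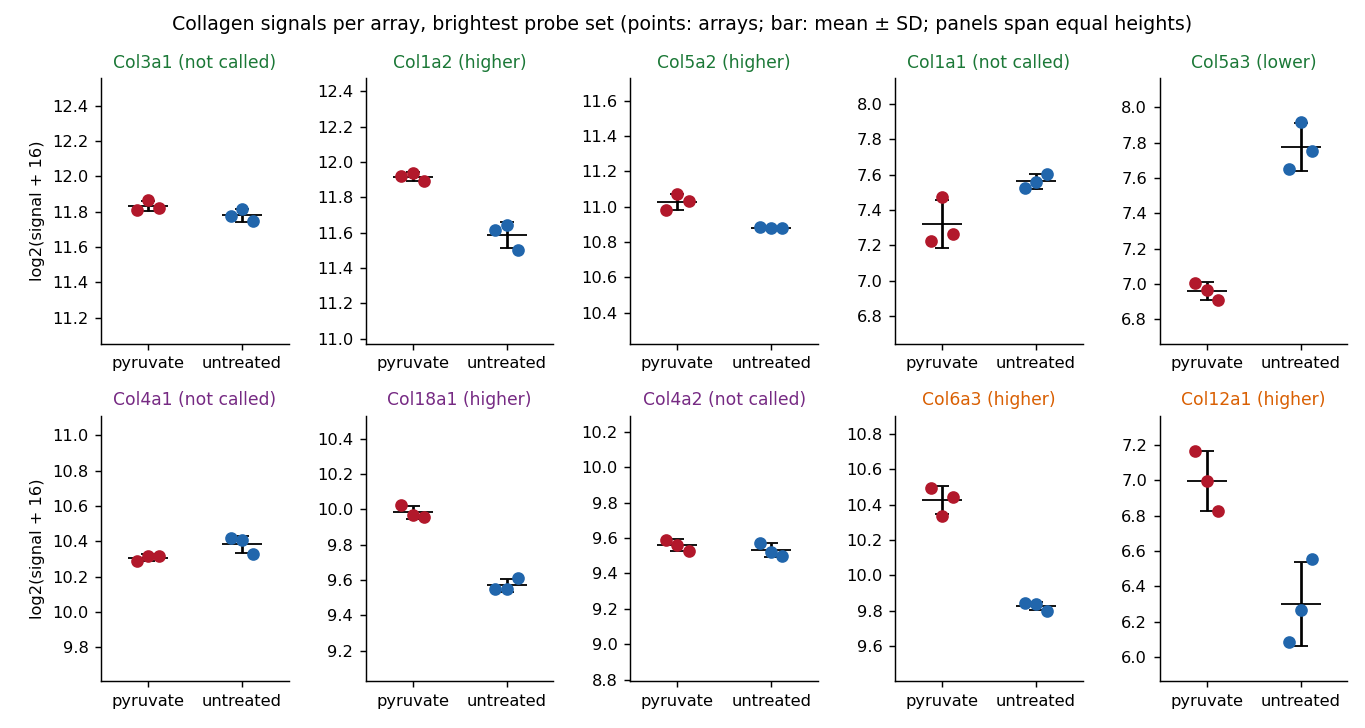
Signal of each array, as log2(signal + 16) on panels of equal height, for the collagen genes that passed and for Col1a1, Col3a1, Col4a1 and Col4a2; points are arrays, bars mean ± SD of 3. In Col6a3, Col18a1, Col12a1, Col1a2 and, by little, Col5a2 the pyruvate points lie above the untreated ones and in Col5a3 well below, while in Col3a1 and Col4a2 they overlap.

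Col4a1 and Col4a2 encode the chains of the type IV trimer found in nearly all basement membranes. The pair lies head to head on chromosome 8 and is read in opposite directions from one shared promoter. In RefSeq their starts, chr8:11312826 (Col4a1, minus strand) and chr8:11312805 (Col4a2, plus strand), are 21 bases apart, each inside the other transcript. The 22 bases from one start to the other are thus the first bases of both transcripts, not a gap between the genes. They are shown here on the plus strand because both genes are governed from around them.
Start-to-start stretch, chr8:11312805-11312826: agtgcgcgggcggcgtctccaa

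Neither gene of the pair passed. Col4a1 gave 1234.5, 1262.5 and 1260.3 with pyruvate and 1352.6, 1340.5 and 1268.6 untreated, pyruvate lower on every array by a small margin (-0.07, limma adjusted p = 0.25, 95% interval -0.18 to 0.03). Under cyclic loess that drop passed (-0.15, adjusted p = 0.026), and a dimmer Col4a1 probe set was higher by 0.33 (adjusted p = 0.021). Col4a2 gave 755.7, 739.8 and 722.4 with pyruvate and 746.3, 717.9 and 707.5 untreated. Its groups overlapped, with a change of 0.03 (limma adjusted p = 0.69, 95% interval -0.08 to 0.14), so the interval bounds its change at 0.14 upwards.

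Col18a1, the core protein of a heparan sulfate proteoglycan of basement membranes whose end piece is released as endostatin, was the one basement membrane gene that passed. Its signals were 1026.1, 984.1 and 979.8 with pyruvate, against 734.3, 732.4 and 765.7 untreated. The groups were well apart, with a rise of 0.41 ± 0.05 (limma adjusted p = 8.1e-05), and a second probe set rose alike, by 0.44 (adjusted p = 0.00017). Col4a5, a chain of a second type IV network, was at 0.06 (95% interval -0.16 to 0.29), and Col7a1, the anchoring fibril collagen of skin, at -0.13 (95% interval -0.35 to 0.09). Neither passed, and in both the groups overlapped: Col4a5 read 131.4 to 173.1 with pyruvate and 141.5 to 153.3 untreated, and Col7a1 read 77.8 to 86.0 with pyruvate and 85.2 to 93.9 untreated. Col4a3, Col4a4, Col4a6 and Col15a1 lay below the filter.

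Type VI collagen forms beaded filaments around muscle fibres, and mutations of any of its main chains, Col6a1, Col6a2 and Col6a3, cause muscle disease in humans. Col6a3 had the lowest adjusted p among the collagens on their brightest probe sets. It gave 1425.3, 1277.7 and 1375.9 with pyruvate, against 903.0, 897.3 and 875.5 untreated. Every pyruvate array was far above every untreated one, with means of 1360 ± 75.1 and 891.9 ± 14.5 (SD, n = 3 arrays each) and a rise of 0.60 ± 0.05 (limma adjusted p = 1.2e-05). It has 1 probe set, and its change lay between 0.54 and 0.64 under all settings tried. Col6a1 was at 0.10 (adjusted p = 0.60, 95% interval -0.19 to 0.40), with 70.9 to 110.8 in pyruvate and 77.0 to 85.5 in untreated arrays. Col6a2 was at 0.02 on its brightest probe set (adjusted p = 0.93, 95% interval -0.25 to 0.29), with 64.4 to 75.8 in pyruvate and 63.5 to 83 in untreated arrays. A dimmer Col6a2 probe set read 0.70 higher (adjusted p = 0.021), at 49.4, 49.1 and 60.7 with pyruvate against 43.2, 23.9 and 16.1 untreated, without overlap.

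Col12a1 encodes type XII collagen, which binds the surface of type I fibrils and is abundant in tissue under mechanical load. Its signals were 127.5, 111.4 and 97.5 with pyruvate, against 51.9, 60.9 and 78.0 untreated. The spread within each group was wide, yet the groups did not overlap, and the rise of 0.69 ± 0.14 passed (limma adjusted p = 0.0028). It lay between 0.37 (mean over probe sets, adjusted p = 0.031) and 0.82 under the 17 alternatives that tested it. A second probe set rose by 0.81 (adjusted p = 0.0023), and the other 2 of the gene read near the floor of the arrays. The related Col16a1 did not pass, at 0.15 with an interval of -0.23 to 0.53 and overlapping signals of 57.3 to 80.3 with pyruvate and 44.5 to 75.5 untreated.

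Col8a1, of the short-chain collagens that form lattices in vessel walls and cornea, did not pass by its brightest reading (-0.07, limma adjusted p = 0.615, 95% interval -0.27 to 0.13). Its dimmer probe sets were both higher, by 0.61 (adjusted p = 0.00010) and 0.49 (adjusted p = 0.011). On the first of them the arrays read 221.0, 227.3 and 219.7 with pyruvate against 138.4, 136.3 and 147.6 untreated, with no overlap. Col25a1, a membrane-spanning collagen that motor axons need to reach muscle in mice, was too scattered to say (-0.01, 95% interval -0.58 to 0.55), with 22.6 to 44.5 in pyruvate and 21.2 to 60.8 in untreated arrays.

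Disagreement between probe sets of a gene was common among the collagens. Of the 19 genes, 11 had more than 1 tested probe set, and in 6 of these the brightest and another gave different calls (54.5%, beside 46.0% of the 5173 such genes overall). Col5a2 alone had opposite calls, 9.09% of the 11 beside 3.36% overall. In 4 genes (Col3a1, Col4a1, Col6a2 and Col8a1) the brightest did not pass while a dimmer one did (36.4%, beside 17.3% overall). These shares are small counts and are given as a description. Col18a1 and Col12a1 passed the same way on every tested probe set, and Col6a3 and Col5a3 had 1 tested probe set each. Which part of each transcript the probe sets read was not analysed here.

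**Figure D3:**
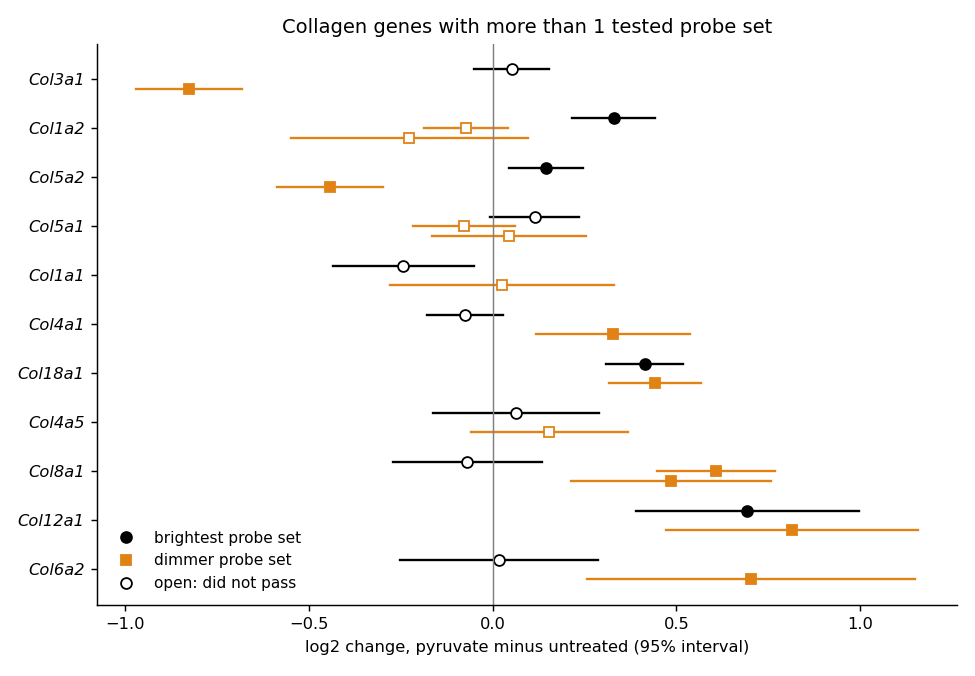
Log2 change (pyruvate minus untreated) with 95% interval for each tested probe set of the 11 collagen genes with more than 1; circles are the brightest probe set, squares dimmer ones, filled symbols passed. Col18a1 and Col12a1 agree between probe sets, while Col3a1 and Col5a2 have a dimmer probe set far to the left and Col8a1 and Col6a2 one far to the right.

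Chains that share a trimer were set against each other within each array, for 6 pairs chosen after their values were seen. The change of Col6a3 exceeded that of Col6a2 by 0.58 and that of Col6a1 by 0.49, the change of Col1a2 exceeded that of Col1a1 by 0.57, and the change of Col5a3 lay 0.93 below that of Col5a1. In each of these the within-array differences of pyruvate and untreated arrays did not overlap. Col4a1 against Col4a2 differed by -0.10, also without overlap, and Col5a2 against Col5a1 by 0.03 with overlap. Because of how the pairs were chosen these are descriptions. An exact test of 3 against 3 arrays cannot fall below p = 0.1, so none of the pairs could pass. The share of other gene pairs without overlap is not given. The values are for the brightest probe sets. Other probe sets of Col1a1, Col1a2, Col4a1, Col5a2 and Col6a2 gave other changes, and the dimmer Col6a2 one (0.70) lay above Col6a3 (0.60).

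The 23 collagen genes below the filter had group means of 1.73 to 30.0 and no array above 47.4. Beside those named above they were Col6a4, Col6a5, Col8a2, Col9a1, Col9a2, Col9a3, Col10a1, Col13a1, Col14a1, Col17a1, Col19a1, Col20a1, Col22a1, Col23a1 and Col26a1. Fitted by limma without the filter, 0 of the 23 passed. The 16.7% of all genes that passed in that fit is no like share, since it takes in the genes above the filter. Of the 23, 2 had an unadjusted p below 0.05, beside 8.52% of all genes below the filter. These were Col17a1, a collagen of epithelial attachment sites (31.1, 13.2 and 17.5 with pyruvate, 7.2, 3.4 and 9.6 untreated; adjusted p = 0.078), and Col14a1, a fibril-associated collagen (16.5, 14.1 and 15.2 with pyruvate, 25.4, 23.4 and 27.2 untreated; adjusted p = 0.13). At these signals changes of moderate size may go undetected, which was not tested. Col22a1, known from the muscle-tendon junction, and Col13a1, from the neuromuscular junction, are among the 23.

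**Figure D4:**
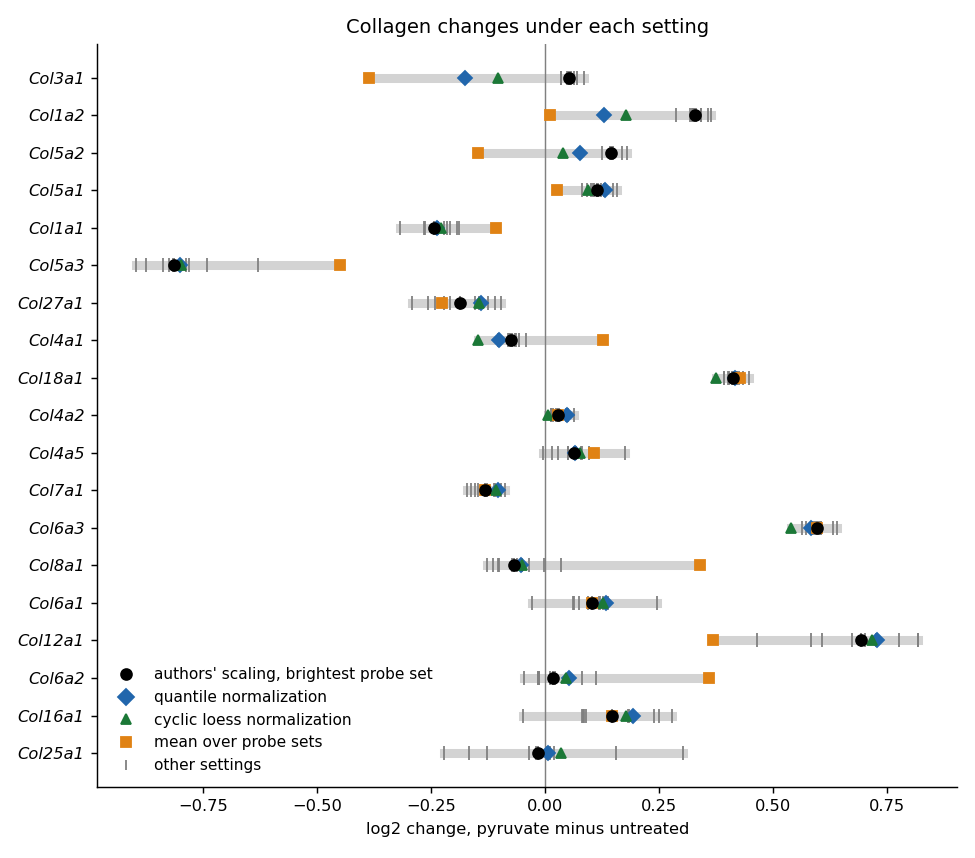
Log2 change (pyruvate minus untreated) of the 19 genes under each setting; the grey bar spans all settings, ticks are single settings and coloured symbols are the 2 rescalings and the mean over probe sets. Col6a3, Col18a1, Col12a1 and Col5a3 keep their side of 0 throughout. Col3a1 crosses it under both rescalings and under the mean over probe sets, and Col5a2, Col4a1 and Col8a1 under the mean. With 1 array left out, Col8a1, Col4a5, Col6a1, Col6a2, Col16a1 and Col25a1, which did not pass, cross it too.

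Genes that modify, cleave, crosslink or bind collagen were read from lists drawn up for this purpose. The lists were chosen with earlier results of these data known, so their counts beside the background are descriptions. Before a collagen leaves the cell its chains are hydroxylated, folded by chaperones and packed for export. Of 19 tested genes for these steps 11 were higher and 3 lower (background 20.7% and 14.5%), with a median change of 0.29. Among those that passed, the largest changes were those of Fkbp14, a folding isomerase of the endoplasmic reticulum (0.82, limma adjusted p = 5.7e-06), Creb3l1, a transcription factor that promotes type I collagen expression in mouse bone (0.75), P3h4, a partner of lysyl hydroxylation (0.59), and Plod3, a lysyl hydroxylase (0.51). P3h2, a prolyl 3-hydroxylase picked out with its values known, reached 0.79 yet missed the threshold (adjusted p = 0.052), but passed after quantile, median and cyclic loess normalization (adjusted p = 0.026 to 0.040). The 3 lower ones, named after their values were seen, were P4ha1, a catalytic subunit of prolyl 4-hydroxylase (-0.46), Plod2, another lysyl hydroxylase (-0.35), and Serpinh1, the collagen chaperone HSP47 (-0.32). Serpinh1 had 1886.1, 2031.2 and 1959.0 with pyruvate, against 2456.1, 2433.5 and 2473.1 untreated, with no overlap.

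All 7 tested genes for procollagen cleavage and lysyl oxidation were higher on their brightest probe sets (background 20.7%), with a median of 0.59. Other probe sets of listed genes are not shown. They were led by the lysyl oxidases, which crosslink collagen chains outside the cell: Lox at 1.00, Loxl3 at 0.68 and Loxl1 at 0.59, with Pcolce2, an enhancer of C-propeptide removal, at 0.67. Lox, on its brightest probe set, read 2420.9, 2424.3 and 2299.0 with pyruvate against 1250.5, 1157.0 and 1144.6 untreated (limma adjusted p = 2.4e-07). After quantile or cyclic loess normalization 6 of the 7 passed, and Pcolce, the exception, was then at -0.04 and 0.06. Of 7 tested partners of collagen fibrils 6 were higher (background 20.7%) and Dcn, decorin, did not pass (-0.19, adjusted p = 0.054). Bgn, biglycan (0.96, at 1768 ± 78.8 with pyruvate and 901.2 ± 18.9 untreated, SD, n = 3 arrays each), the thrombospondin Thbs1 (0.69), fibronectin Fn1 (0.56) and Sparc, a collagen-binding matrix protein (0.50), changed most. Fn1 and Sparc, on bright probe sets, were at 0.09 and 0.11 after quantile normalization, still past the threshold, and the median of the 7 tested partners, 0.50, was then 0.29 (0.31 after cyclic loess).

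Partners of type IV collagen in the basement membrane moved both ways, 3 of 11 higher and 3 lower (background 20.7% and 14.5%), with a median of 0.00. Nidogen Nid1 (0.34) and the laminin chain Lamb3 (0.36) were higher, and the laminin chain Lama2, of muscle basement membranes, was lower (-0.34). Lamb2, another laminin chain, was higher (0.22). The laminin chain Lama5 (-0.21) and Pxdn (-0.17), which crosslinks type IV collagen, were the other members that passed and are named after their values were seen. Lama5 and Pxdn lost their call after median centring and cyclic loess, and Pxdn after quantile normalization too. Of 5 tested collagen receptors 1 was higher and 1 lower (background 20.7% and 14.5%): Itgb1, the beta chain of collagen-binding integrins, was at 0.23 and the discoidin receptor Ddr1 at -0.42. Mmp14, a membrane-bound collagenase, was the 1 of 3 tested collagen-cleaving proteases that passed (0.21). Itgb1 and Mmp14 did not pass after cyclic loess.

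**Figure D5:**
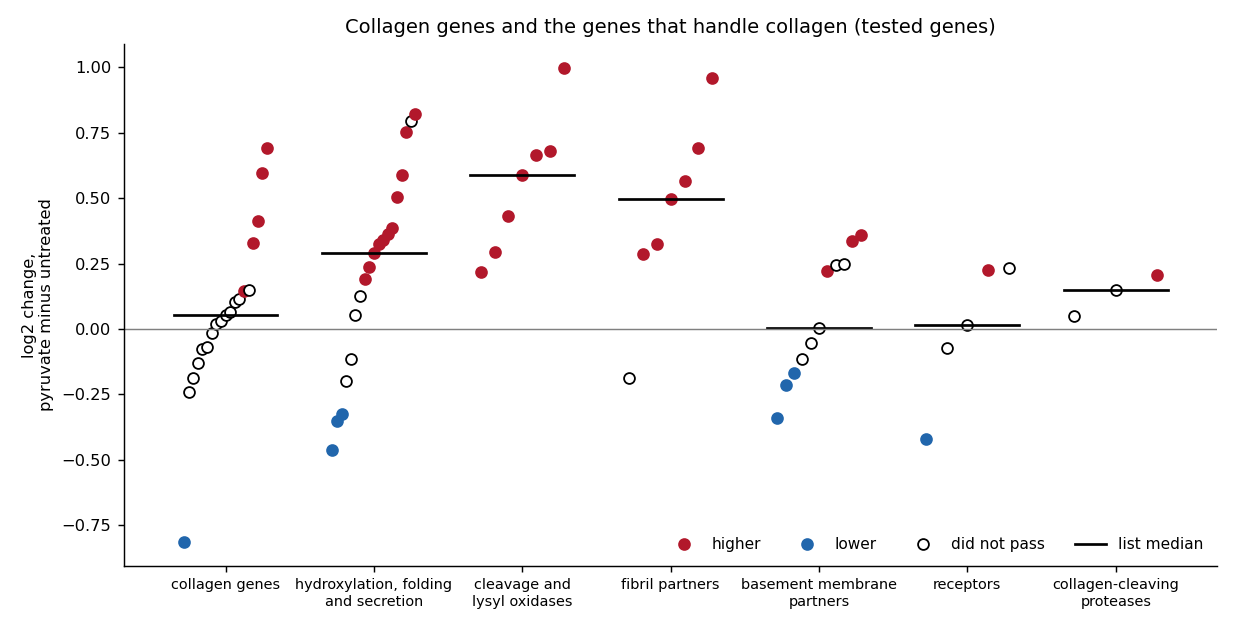
Log2 change (pyruvate minus untreated) of each tested collagen gene and of each tested gene on the 6 lists of collagen-handling genes; red points were higher, blue lower, open points did not pass, and lines are medians. The collagen genes centre on 0.05, the genes of cleavage and lysyl oxidation on 0.59 and the fibril partners on 0.50.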

How the data were processed

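The deposited values are linear MAS5 signal intensities, per the submitters' processing notes, which name neither a version nor settings. After trimming 2% of probe sets at each end, every array averaged 150, so the authors had scaled the arrays alike, and that scaling was kept. Of 45101 probe sets 64 controls were left out. Gene symbols came from the platform annotation (34945 probe sets with 1 symbol, 932 with several, 9160 with none). Changes were fitted with limma 3.58.1 in R 4.3.3 (lmFit and eBayes, trend in the variances, two-sided, no block) on log2(signal + 16), for 22519 probe sets whose mean was at or above the median log2 value of 5.534. All adjusted p-values are Benjamini-Hochberg values of that fit unless another is named. Whether samples came from separate cultures is not in the labels. The p-values set the difference of the groups against the spread among samples inside them. That spread may be only technical, so the p-values may not extend to new cultures. Arrays carry no read depth, and their number limits the precision.

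Collagen genes, lists and tests were chosen with earlier results of these data known. All collagen genes tested are named, with the value in every array for those past the threshold and for Col1a1, Col1a2, Col3a1, Col4a1 and Col4a2, and, from each other list, up to 4 members past the threshold with the largest changes. Listed genes that matched no probe set of 1 symbol included Fkbp10, Adamts2, Adamts14, Loxl2, Itga11 and Plin1. Alternatives covered the pseudocount, the filter, quantile, median and cyclic loess normalization, the variance model, array weights, the replicate block, the mean over probe sets and each array left out. The fit was tested on simulated data of 22519 probe sets, with 50 changed at each size. It recovered 4% of changes of 0.25, 54% of 0.5, 84% of 1 and 98% of 2, with 3 false calls. Far fewer members were changed there than the 35.1% of genes called here, and the adjusted p depends on that number. These shares are therefore not the power of the present fit. Most changes of 0.25 were thus missed there. Promoter sequences are RefSeq's, build GRCm38.p6. Figures were drawn with matplotlib 3.10.9.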

Additional observations from a re-analysis of the deposited data

How the results depend on the processing

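The number of collagen genes called higher, 5, lay between 4 and 5 under all 18 alternatives, Col5a2 being the one lost except with the stricter filter, which did not test Col12a1 or Col5a3, and the mean over probe sets. The number called lower, 1, was 2 after quantile normalization, 3 after cyclic loess and 3 with the mean over probe sets, and 1 to 2 with 1 array left out, the second being Col1a1 without pyruvate replicate 2. With the stricter filter the 1 lower gene was Col1a1. Col3a1 reversed to -0.18 after quantile normalization, -0.10 after cyclic loess and -0.39 with the mean over its probe sets. With that mean Col5a2 also reversed, to -0.15, and Col8a1 to 0.34, past the threshold (limma adjusted p = 0.0029), while Col1a2 was left at 0.01 (adjusted p = 0.93). The genes called higher under the mean thus included Col8a1 but neither Col1a2 nor Col5a2, so the near-equal count hides a change of members. Beyond the values of the probe sets themselves, the cause was not tested. Col5a3, Col6a3, Col18a1 and Col12a1 passed in the same direction under every alternative in which they were tested. The replicate block gave 5 higher and 1 lower. Same-numbered arrays did not deviate together (r = -0.01 to 0.02 across probe sets), so the numbers were not taken as pairs. The median change of the collagen genes tested lay between 0.01 and 0.09, beside 0.01 to 0.07 for all genes. Low signal limits the 23 genes below the filter.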
